A study of Mus musculus with 18 samples.

Results

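The H3K4me3 peak lists of a Mettl3 knockout line, KO1, were compared with those of its Control. The members are the 4 H3K4me3 samples labelled KO1 (2) and Control (2), out of 18 samples in the series, 12 of which carry a peak list. All are mouse embryonic stem cells of strain C57BL/6. The Control carries the genotype label Mettl3_Control and KO1 the label Mettl3_KO1. A further knockout line, KO2, was used where stated. Cells of every group were grown in serum medium with LIF, the Wnt pathway activator CHIR99021 and the MEK inhibitor PD0325901, cross-linked with formaldehyde, and immunoprecipitated together with added spike-in chromatin. The labels do not say how Mettl3 was disrupted, whether a line is 1 clone, or whether r1 and r2 came from separate cultures, so the spread between replicates may be technical.

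H3K4me3, trimethylation of lysine 4 on histone H3, marks the starts of genes that are transcribed or poised, and is written by SET1 and MLL complexes that include proteins binding unmethylated CpG-rich DNA. At active genes the mark forms a peak just downstream of the start and tails into the gene. Mettl3 is the catalytic subunit of the complex that writes N6-methyladenosine (m6A) on RNA. The title of the series relates this RNA modification to chromatin and transcription.

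The sequences below are the 250 bases before the annotated start of 6 genes whose H3K4me3 differed between the lines, shown because CpG content is the sequence feature most closely tied to this mark. Among the 15 named genes with a start sequence, the CpG count ran from 0 to 22 in those that were lower in KO1 and from 1 to 14 in those that were higher, so that the counts overlap. They are 5′ to 3′ on the strand of the gene, from RefSeq on GRCm38.p6 (mm10), with each CpG in capitals. Mettl3 is the targeted gene (chr14:52305125-52305374, minus strand, 13 CpG). Bcam encodes a laminin receptor (chr7:19770533-19770782, minus strand, 22 CpG). Meg3 is a maternally expressed imprinted non-coding RNA (chr12:109540746-109540995, plus strand, 10 CpG). Nanos3 is an RNA-binding regulator of germ cells (chr8:84176553-84176802, minus strand, 3 CpG). These 4 were lower in KO1. Lrrn2, a leucine-rich repeat gene of neurons (chr1:132880105-132880354, plus strand, 10 CpG), and Saa3, an acute-phase serum amyloid (chr7:46715677-46715926, minus strand, 3 CpG), were higher in KO1.
Mettl3: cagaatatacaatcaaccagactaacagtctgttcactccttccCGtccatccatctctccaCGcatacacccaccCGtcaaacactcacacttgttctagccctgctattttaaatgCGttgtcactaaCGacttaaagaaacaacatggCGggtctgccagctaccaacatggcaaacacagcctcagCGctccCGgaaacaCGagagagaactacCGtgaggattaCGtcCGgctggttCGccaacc
Bcam: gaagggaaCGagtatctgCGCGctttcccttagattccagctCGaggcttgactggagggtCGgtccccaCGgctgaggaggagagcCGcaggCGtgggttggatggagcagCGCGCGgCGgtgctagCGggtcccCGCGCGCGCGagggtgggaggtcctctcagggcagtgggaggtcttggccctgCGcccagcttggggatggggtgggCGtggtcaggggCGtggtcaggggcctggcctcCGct
Meg3: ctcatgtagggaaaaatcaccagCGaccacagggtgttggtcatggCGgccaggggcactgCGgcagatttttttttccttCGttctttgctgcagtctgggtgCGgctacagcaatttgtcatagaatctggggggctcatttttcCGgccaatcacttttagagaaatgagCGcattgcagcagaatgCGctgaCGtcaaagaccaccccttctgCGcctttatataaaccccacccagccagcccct
Nanos3: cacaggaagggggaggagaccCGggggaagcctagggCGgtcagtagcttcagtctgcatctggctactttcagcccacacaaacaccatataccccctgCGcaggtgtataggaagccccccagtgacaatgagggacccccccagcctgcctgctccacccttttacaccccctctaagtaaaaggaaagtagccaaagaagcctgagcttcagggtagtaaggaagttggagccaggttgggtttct
Lrrn2: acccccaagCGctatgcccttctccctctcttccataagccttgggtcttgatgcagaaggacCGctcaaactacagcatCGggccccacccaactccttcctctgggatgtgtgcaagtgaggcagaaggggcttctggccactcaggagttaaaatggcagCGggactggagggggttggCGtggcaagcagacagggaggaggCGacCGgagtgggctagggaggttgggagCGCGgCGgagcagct
Saa3: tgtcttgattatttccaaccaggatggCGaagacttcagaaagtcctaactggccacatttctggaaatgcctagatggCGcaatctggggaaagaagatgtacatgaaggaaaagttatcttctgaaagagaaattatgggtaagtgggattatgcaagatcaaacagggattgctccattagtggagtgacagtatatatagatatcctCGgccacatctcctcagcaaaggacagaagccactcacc

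At the Mettl3 promoter, H3K4me3 was lower in KO1. The measure is the share of a window reaching 2 kb to either side of the annotated start that lies under peaks. Peaks covered 65.4% and 64.2% of the Mettl3 window (chr14:52303124-52307124) in Control r1 and r2, and 37.9% and 41.5% in KO1 r1 and r2. Both KO1 values lay below both Control values, a difference of -25.1 points (SE 3.66; limma, adjusted p = 0.0268). The call was lost when any 1 of the 4 libraries was left out, with differences of -26.9 to -23.3 points, and with only peaks of -log10 q of at least 5 or equal numbers of peaks per list, with -21.5 points each. H3K27ac, the acetylation mark of active promoters, covered 18.7% and 22.2% of the same window in Control and 20.9% and 19.8% in KO1, and the groups overlapped. This start lies 3.62 kb inside the outermost annotated 5′ end of the gene, and the windows at the gene's outer ends had no peak in any of the 6 libraries, so no test was possible there. A peak list does not show whether DNA or protein is lost, so these values do not check the knockout itself.

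Sequencing depth is not given in the peak lists. Control r1 and r2 have 83644 and 81608 H3K4me3 peaks, and KO1 r1 and r2 have 69995 and 69320. The H3K27ac lists of the same lines went the other way, with 29966 and 32948 peaks in Control and 40202 and 39041 in KO1 on the main chromosomes. Of 14 embryonic stem cell markers, 13 had H3K4me3 in all 4 libraries, with a median window coverage between 85.2% and 94.1%. The coverage of the 14 summed to 1124 and 1131 points in Control and 1078 and 1100 in KO1. Of 15 fibroblast markers, for feeder cells, 5 were covered in all 4 libraries (Twist1, Fn1, Vim, Ccn1 and Ccn2). Col3a1, Dcn, Lum and Postn were at 0 in all 4. The 15 fibroblast markers summed to 400.4 and 362.8 points in Control and 325.3 and 318.8 in KO1. Primitive endoderm markers summed to 253.1 and 231.4 points in Control and 206.8 and 196.7 in KO1, and those of trophectoderm to 255.5 and 261.1 against 246.5 and 215.9. The part of cell makeup in the differences between the lines was not tested.

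Counted by bases, most of the H3K4me3 length that KO1 lacked lay inside genes, more than 2.5 kb from their ends. Each base was placed separately, so a peak running from a gene end into the gene adds to both places. Inside protein-coding genes, more than 2.5 kb from either end, peaks covered 28.6 and 27.4 Mb in Control and 18.9 and 18.1 Mb in KO1. KO1 had 0.661 of the Control mean there, and the difference of -9.48 Mb made up 83.6% of the difference over the genome. Within 2.5 kb of a gene end the values were 22.5 and 22.1 Mb in Control and 20.5 and 20.2 Mb in KO1, a ratio of 0.913. Between genes they were 7.13 and 6.79 Mb in Control and 7.17 and 6.91 Mb in KO1, a ratio of 1.01, and the groups overlapped. KO1 lay above Control without overlap there with equal numbers of peaks per list, without chromosomes 4, 8 and 12, and with all annotated genes in place of protein-coding ones. In the whole genome the KO1 libraries covered 46.6 and 45.2 Mb against 58.2 and 56.3 Mb. With 2 libraries against 2 the exact permutation test (two-sided) cannot go below p = 0.333, which was the value for the genome, for gene ends and for gene bodies.

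**Figure D1:**
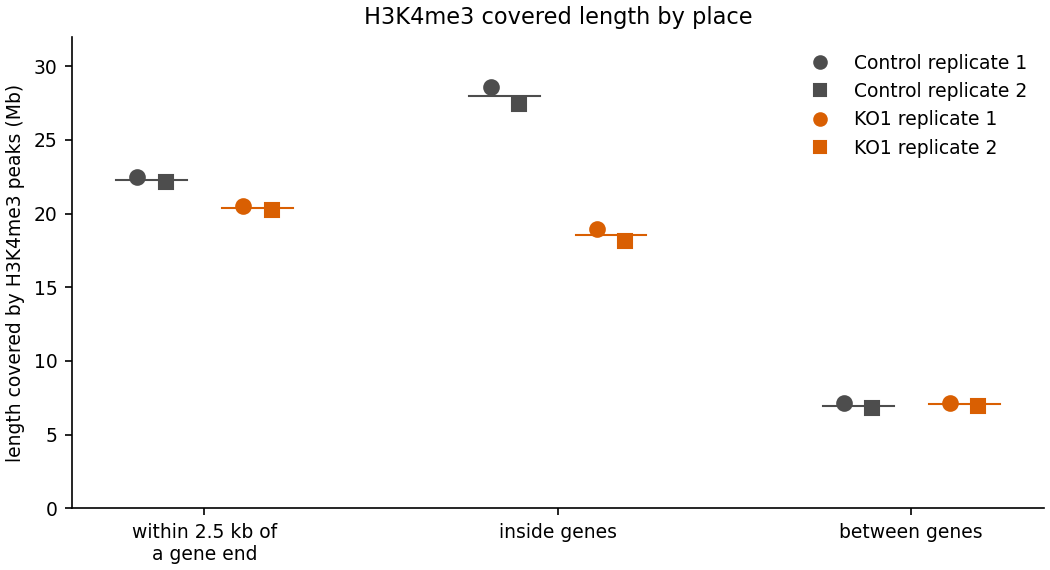
Length covered by H3K4me3 peaks in megabases (vertical axis) within 2.5 kb of a gene end, inside genes and between genes. Points are libraries and lines are group means; the KO1 libraries lie lowest relative to Control inside genes (18.9 and 18.1 Mb against 28.6 and 27.4 Mb) and overlap Control between genes.

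As a share of all covered bases, gene bodies held 49.1% and 48.7% in Control and 40.6% and 40.1% in KO1. Gene ends held 38.6% and 39.3% in Control and 44.0% and 44.7% in KO1. A peak within 1 kb of an end was present at 13109 and 13083 protein-coding genes in Control and at 12951 and 12986 in KO1, a ratio of 0.990. Peaks inside genes numbered 44339 and 43111 in Control and 32363 and 31794 in KO1, while peaks between genes numbered 13671 and 13164 in Control and 13959 and 13775 in KO1.

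The widest peaks were fewer in KO1, while the median width differed by 5.5 bp. The median width was 363 and 366 bp in Control and 372 and 368 bp in KO1. Peaks of 2000 bp or more numbered 5246 and 5027 in Control and 3910 and 3646 in KO1, and they made up 54.9% of the difference in covered length. With peaks within 1 kb joined, domains of 5 kb or more numbered 3354 and 3218 in Control and 2319 and 2260 in KO1. The longest peak was 29658 and 35807 bp in Control and 20744 and 17924 bp in KO1.

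Around annotated starts, KO1 lay above Control at the start itself and below it in the tail that runs into the gene. Over 17492 protein-coding starts, 36.0% and 35.3% were under a peak in Control and 38.2% and 37.3% in KO1. At 0.5 kb downstream the shares were 50.4% in both Control libraries and 49.8% and 49.6% in KO1. At 2 kb downstream they were 17.2% and 16.6% in Control and 12.9% and 12.5% in KO1, and at 5 kb 8.71% and 8.47% against 5.93% and 5.61%. KO1 thus had 0.672 of the Control mean at 5 kb downstream and 0.813 at 5 kb upstream. Counting only bases inside the gene, the ratio was 0.978 in the first kilobase, 0.791 from 1 to 2.5 kb, 0.679 from 2.5 to 5 kb, 0.644 from 5 to 10 kb and 0.601 from 10 to 20 kb. These bins share libraries and many genes, and in each of them both KO1 libraries lay below both Control libraries.

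**Figure D2:**
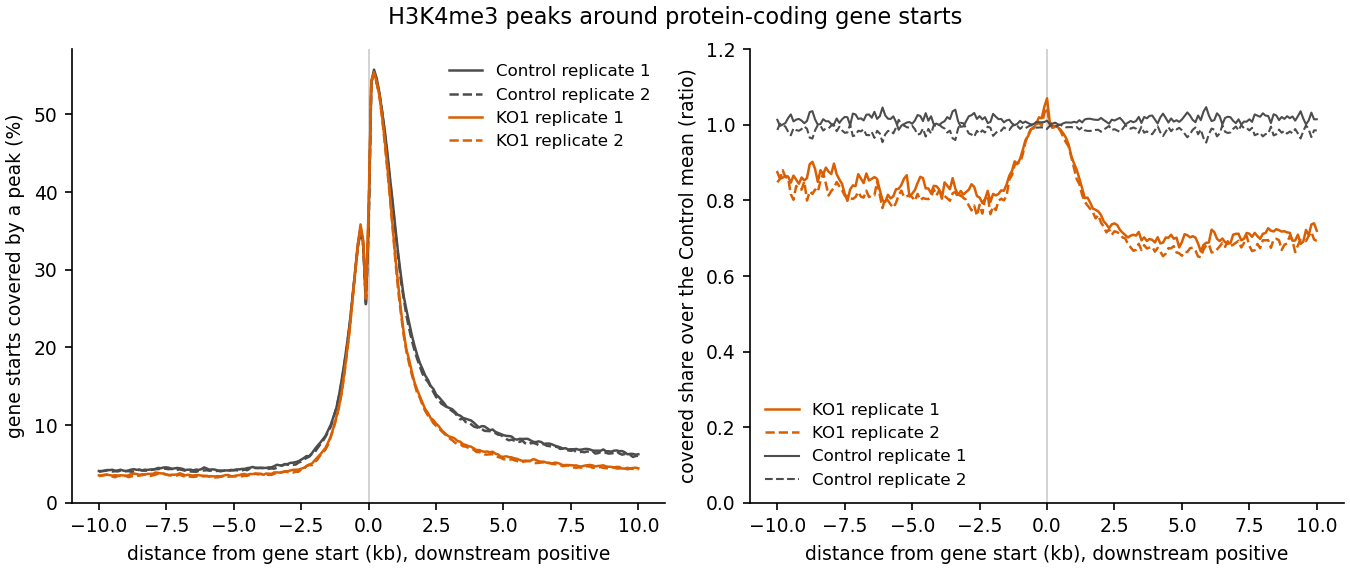
Share of 17492 protein-coding gene starts with a peak at each distance (left, percent) and the same share divided by the Control mean (right, ratio), with distance in kilobases and downstream positive. The KO1 lines lie above Control at the start, and level off at a lower ratio downstream (0.672 at 5 kb) than upstream (0.813 at 5 kb).

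Gene by gene, 16763 protein-coding genes have bases more than 2.5 kb from both ends, and 3718 of them had a mean of at least 1000 bp of H3K4me3 there. Both KO1 libraries were below both Control libraries in 2682 of these 3718 genes (72.1%) and above in 280 (7.53%), and the median ratio was 0.705. The genes with the largest differences, named after their values were seen, included Epha4, an ephrin receptor on chromosome 1. Its body had 40238 and 35910 bp under peaks in Control and 4642 and 4551 bp in KO1. Ski, a repressor of TGF-beta signalling on chromosome 4, had 51591 and 51318 bp in Control and 20133 and 20234 bp in KO1. Cdyl, a chromodomain corepressor on chromosome 13, had 70579 and 68414 bp in Control and 37742 and 36189 bp in KO1. Ankrd11, another chromatin regulator, had 101909 and 98798 bp in Control and 53973 and 48837 bp in KO1, and lies on chromosome 8 with Rbpms and Gab1, the next largest. In the other direction the body of Ptprj, a receptor tyrosine phosphatase, had 1199 and 589 bp in Control and 5891 and 5567 bp in KO1.

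Whole regions lost in KO1 were mostly weak peaks inside genes. With peaks of the 6 H3K4me3 libraries of Control, KO1 and KO2 joined over gaps of up to 1 kb, 40308 regions had a peak in at least 1 of the 4 Control and KO1 libraries, and 20714 had one in all 4. A whole region was placed at a gene end if any part lay within 2.5 kb of an end of a protein-coding gene. Otherwise it was inside a gene if it met a protein-coding gene, and between genes if not. A peak was present in both Control and neither KO1 library in 2131 regions, which is 8.54% of those in both Control libraries. That share was 21.0% inside genes (1528 regions), 7.45% between genes (359) and 1.90% at gene ends (244). The reverse, both KO1 and neither Control library, held in 1225 regions (5.20% of those in both KO1 libraries), with 7.81% inside genes (442), 11.6% between genes (610) and 1.37% at gene ends (173). A pair of libraries also disagreed within a group, with 5694 and 4831 regions found in only Control r1 or only Control r2. The lost regions had a median deposited -log10 q of 5.22 and 5.37 in the Control lists, against 22.5 and 21.7 for the regions in all 4 libraries.

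H3K27ac was also listed at part of the regions between genes that appeared in KO1. Of the 610 such regions, 42.1% met an H3K27ac peak in both KO1 lists and 7.38% in both Control lists. Over all 9878 regions between genes with H3K4me3 in any of the 4 libraries these shares were 38.0% and 29.2%. Of the 3920 regions between genes with H3K4me3 in all 4 libraries, 66.7% met H3K27ac in both KO1 lists and 59.3% in both Control lists. The H3K27ac lists of KO1 are longer than those of Control, and the part of that in these shares was not tested.

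In the 20714 regions present in all 4 libraries, the covered length was also lower in KO1 at genes. The median ratio of KO1 to Control was 0.889 at gene ends, 0.847 inside genes and 1.00 between genes. Regions at gene ends held 40.4 and 39.5 Mb in Control and 32.6 and 31.7 Mb in KO1. Those inside genes held 9.16 and 8.75 Mb against 6.71 and 6.49 Mb, and those between genes 5.27 and 5.07 Mb against 5.17 and 5.00 Mb. By whole regions, the larger fall in length was thus in regions that meet a gene end, parts of which can lie inside the gene. Both KO1 libraries lay below both Control libraries in 47.4% of the gene-end regions and above in 10.4%. Between genes the counts were near each other, with 24.5% below and 26.6% above.

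In the test of each region's covered length, the share of lower calls was largest inside genes and smallest between genes. Places here are those of whole regions, not of bases, so this order is not that of the covered megabases. Lengths were compared as log2(bp + 500) with limma over the 18140 regions with a mean of at least 500 bp, and called at an adjusted p under 0.05. Of these, 1867 were lower in KO1 (10.3%) and 424 were higher (2.34%). Inside genes 650 of 3776 regions were lower (17.2%) and 129 higher (3.42%). At gene ends 1046 of 11229 were lower (9.32%) and 87 higher (0.775%), and between genes 171 of 3135 were lower (5.45%) and 208 higher (6.63%). The median lower region inside genes had 2649 bp under peaks in Control and 816 bp in KO1, so that most were shortened and 4.15% had no KO1 peak at all. The median lower region at gene ends had 5776 bp in Control and 3320 bp in KO1.

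The number of calls depended on every library and on the scaling. Without Control r1, Control r2, KO1 r1 or KO1 r2 in turn, 209, 350, 701 and 491 regions were lower and 138, 165, 105 and 98 higher. With the 6 libraries brought to a common distribution by quantile normalization, which moved the median difference of all regions from -0.12 to 0.03 on the log2 scale, 972 were lower and 937 higher, so that lower regions made up 50.9% of the calls in place of 81.5%. Under that scaling 12.6% of regions inside genes were lower and 5.64% higher, 3.43% and 3.10% at gene ends, and 3.51% and 11.99% between genes. The share of lower calls was larger inside genes than between genes under all 14 alternatives. Gene ends did not keep their place in this order. With peaks joined only where they touch, 1.27% were lower at gene ends and 1.65% between genes. The share at gene ends was also the smallest under quantile normalization and without either KO1 library. Without the filter the shares inside genes and at gene ends were 2.94% and 2.93%.

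Inside genes, the largest falls were in Basp1, Gsr, Epc1 and Arl15. The region in Basp1, which encodes a neuronal membrane protein (chr15:25368659-25384495), had 9244 and 7087 bp under peaks in Control and 382 and 930 bp in KO1. The log2 difference was -2.94 (SE 0.23; limma, adjusted p = 0.00268). The region in Gsr, the glutathione reductase gene (chr8:33664977-33669597), had 3708 and 2886 bp in Control and no peak in either KO1 library. It had no peak in KO2 either, so it passed the filter on mean length through Control alone. In Epc1, a subunit of the TIP60 acetyltransferase complex, the region had 7958 and 6871 bp in Control and 1273 and 156 bp in KO1 (adjusted p = 0.00874, limma). In Arl15, a small GTPase gene (chr13:113807432-113822179), it had 8180 and 9373 bp in Control and 1319 and 593 bp in KO1. None of the 4 pairs of groups overlapped. The Epc1 call was lost without either Control library.

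The largest rises inside genes were in Slc39a11, Ptprj, Pkd1l2 and Zfp951. The region in Slc39a11, a zinc transporter gene (chr11:113586197-113592286), had 219 and 0 bp in Control and 3118 and 3205 bp in KO1. The log2 difference was 2.61 (SE 0.21; limma, adjusted p = 0.00271). In Ptprj (chr2:90553903-90562853) the lengths were 865 and 304 bp in Control and 5026 and 4692 bp in KO1, and in the zinc finger gene Zfp951 (chr5:104826824-104840506) 1389 and 979 bp against 7712 and 5576 bp. The region in Pkd1l2, a polycystin family gene (chr8:117014838-117020672), rose from 688 and 533 bp to 4282 and 4695 bp on a chromosome where the total covered length was lower in KO1. It also lies at the end of another annotated gene.

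Between genes, the largest fall was upstream of Meg3. The region (chr12:109523093-109532534) ends 8.46 kb before the Meg3 start, in the imprinted cluster of Dlk1, Rtl1 and Meg3, and its nearest protein-coding gene is Rtl1. It had 5237 and 5773 bp under peaks in Control and 391 and 666 bp in KO1, a log2 difference of -2.56 (SE 0.18; limma, adjusted p = 0.00171). It met an H3K27ac peak in both Control lists and in neither KO1 list. This region passed the filter on mean length only with its Control values. The Meg3 promoter window itself (chr12:109538996-109542996), whose upstream sequence is printed above, was covered to 66.8% and 59.3% in Control and 24.4% and 17.4% in KO1. That difference was -42.1 points (SE 4.01; limma, adjusted p = 0.0129). KO2 was at 14.3% and 18.3%.

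The other falls between genes were nearest to Tcim, Smim31 and Pcbd1. The region nearest to Smim31 on chromosome 8 had 2190 and 2329 bp in Control and no peak in KO1 or KO2. It passed the filter on mean length through Control alone, and the one nearest to Pcbd1 passed only with its Control values. The region nearest to Tcim, also on chromosome 8, had 4053 and 3073 bp in Control and 150 and 234 bp in KO1, and the one nearest to Pcbd1 on chromosome 10 had 2892 and 3784 bp against 322 and 232 bp. The 4 largest rises lay nearest to Atrx, Epcam, Ddc and Gm525, at 5043 to 59188 bp from the gene. The region near Atrx, the X-linked chromatin remodeller (chrX:105937342-105940341), had no peak in either Control library and 1840 and 1929 bp in KO1. The regions near Epcam, an adhesion molecule of epithelial and stem cells (1740 and 1642 bp in KO1), and Gm525 (1356 and 1349 bp) had no Control peak either. The regions near Atrx, Epcam and Gm525 thus passed the filter on mean length through the knockout lines alone. All 4 met H3K27ac in both KO1 lists, the one near Ddc in both Control lists and the other 3 in 1 Control list.

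**Figure D3:**
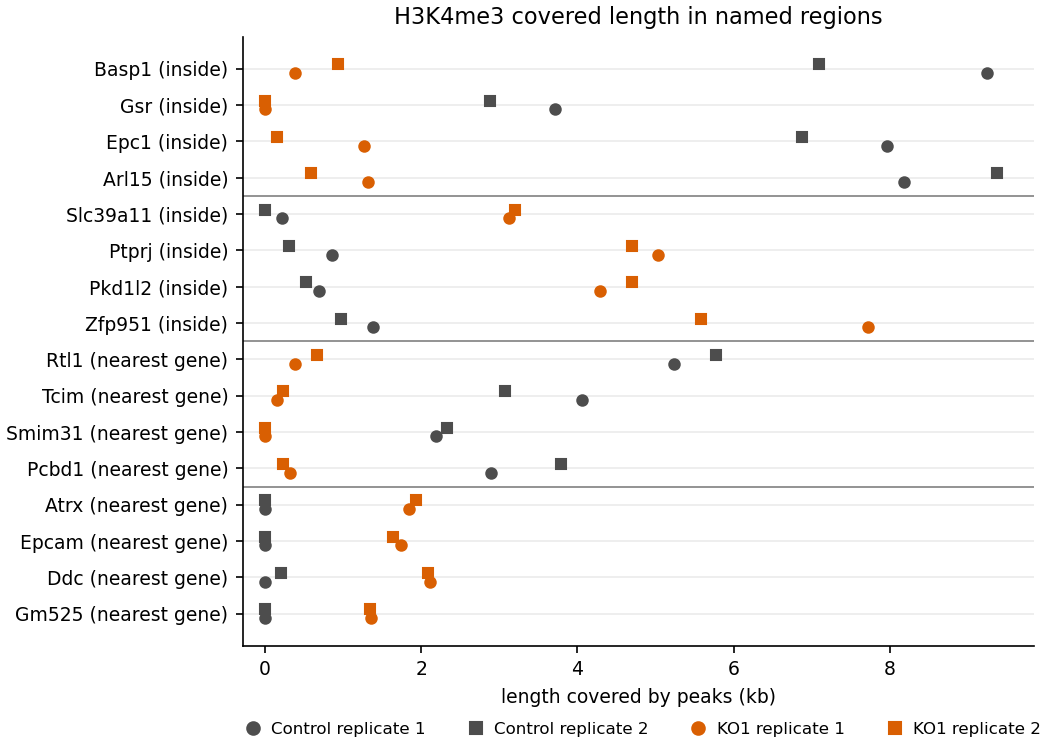
Length under H3K4me3 peaks in kilobases (horizontal axis) in the 16 named regions inside genes or between genes, with 1 point per library. In every region the 2 KO1 points lie apart from the 2 Control points; 5 regions have no peak in either library of 1 group.

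At promoter windows the shift was small for most genes. The test took 13533 of 21895 windows, those with a mean coverage of at least 5% that was not the same in all 6 libraries. The median signed difference between KO1 and Control was -2.24 points. The median absolute difference between the 2 replicates was 3.65 points in Control and 3.57 in KO1. A signed and an absolute median cannot be compared directly. Both KO1 libraries lay below both Control libraries at 4923 windows (36.4%) and above at 1670 (12.3%). The limma fit called 212 lower (1.57%) and 26 higher (0.192%). These calls need all 4 libraries: without Control r1 or Control r2, 4 windows each were lower and 1 and 0 higher, and without KO1 r1 or KO1 r2 none was called. In those 4 fits 1370 to 1635 windows were lower and 275 to 387 higher at an unadjusted p under 0.05. Quantile normalization gave 105 lower and 42 higher, so that lower windows made up 71.4% of the calls in place of 89.1%.

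Among 23 genes of the m6A machinery, all tested, 3 were lower (1.57% over all windows) and none higher (0.192% over all windows), with a median difference of -0.62 points against -2.24 over all windows. Besides Mettl3, these were its partner Mettl14, which binds RNA in the same complex, and the m6A reader Ythdf3. The Mettl14 window was covered to 74.6% and 67.8% in Control and 43.8% and 46.6% in KO1 (adjusted p = 0.0318, limma). The Ythdf3 window was covered to 88.4% and 96.2% in Control and 67.7% and 60.9% in KO1 (adjusted p = 0.0435, limma). The groups overlapped at neither gene. Both of these calls were lost under quantile normalization (adjusted p = 0.0588 and 0.0621, limma), and that of Mettl3 was not (0.0451). At Mettl14 and Ythdf3 no annotated start was at hand and the window is the one in the gene with the most H3K4me3.

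The largest falls among promoter windows were at Zmat4, Ccdc141, Sh3rf1, Setd5, Fat1, Tnks, Bcam, Champ1, Bcar1, Pou4f2, Nanos3 and Meg3. Of these 12, 8 lie on chromosome 8, namely Zmat4, Sh3rf1, Fat1, Tnks, Champ1, Bcar1, Pou4f2 and Nanos3. That chromosome held 5.51% of all tested windows and 20.3% of the 212 lower ones. The window at Zmat4 was covered to 91.3% and 91.9% in Control and 28.1% and 28.5% in KO1, a difference of -63.3 points (SE 6.69; limma, adjusted p = 0.0153). At Tnks, which encodes the poly-ADP-ribose polymerase tankyrase, the shares were 92.2% and 93.2% in Control and 47.9% and 49.8% in KO1. Nanos3 had 59.6% and 49.6% in Control and 13.6% and 10.3% in KO1, and Pou4f2, a neuronal transcription factor, had 68.5% and 56.3% against 22.3% and 16.9%. In all 12 both KO1 libraries were below both Control libraries.

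Some of these windows are not at the outermost start of the gene. The Bcar1 and Ccdc141 windows are centred on annotated starts 11.7 and 3.13 kb inside the outermost 5′ end of the gene. Those of Zmat4, Sh3rf1, Tnks and Champ1 are not at an annotated start at all, but where the gene has the most H3K4me3, at 18.4 kb from the nearest gene end for Zmat4, 19.9 kb for Sh3rf1 and within 2 kb for Tnks and Champ1. The Fat1 window (chr8:44948208-44952208) is centred 17.1 kb inside this atypical cadherin gene, and was covered to 51.9% and 42.3% in Control and 0% in both KO1 libraries. It passed the filter on mean coverage only with its Control values. The Setd5 window is centred 27.7 kb inside this SET-domain gene and was covered to 56.2% and 59.4% in Control and 11.97% and 6.77% in KO1. At the gene ends themselves the differences were -0.87 points for Fat1 and 1.61 for Setd5, and neither passed the test. Outside chromosome 8 and at the outer start of its gene, Bcam (chr7:19768532-19772532) had 73.8% and 84.5% in Control and 38.5% and 32.4% in KO1. That was a difference of -43.7 points (SE 4.72; limma, adjusted p = 0.0156).

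The largest rises were at Eif2s3y, Lrrn2, Saa3, Rpl10l, Apol6, Ddx3y, Pla2g1b and Lrmp. Lrrn2 (chr1:132878355-132882355) was covered to 36.7% and 46.1% in Control and 88.9% and 79.4% in KO1. Its difference was 42.8 points (SE 5.92; limma, adjusted p = 0.0247), and H3K27ac there went from no peak in Control to 56.3% and 42.9% of the window in KO1. Saa3 had 1.30% and 4.72% in Control and 38.3% and 47.2% in KO1, and Pla2g1b, the pancreatic phospholipase A2, 23.9% and 21.8% against 47.4% and 52.3%. Apol6, an apolipoprotein L gene, had no peak in Control and 29.5% and 40.2% in KO1. Its window passed the filter on mean coverage through the knockout lines alone. The windows of Apol6 and Lrmp were likewise placed by H3K4me3. Those of Saa3 and Lrmp are centred 3.68 and 9.70 kb from the nearest gene end, and at the gene end with the more H3K4me3 Lrmp had a difference of -5.74 points, which did not pass.

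**Figure D4:**
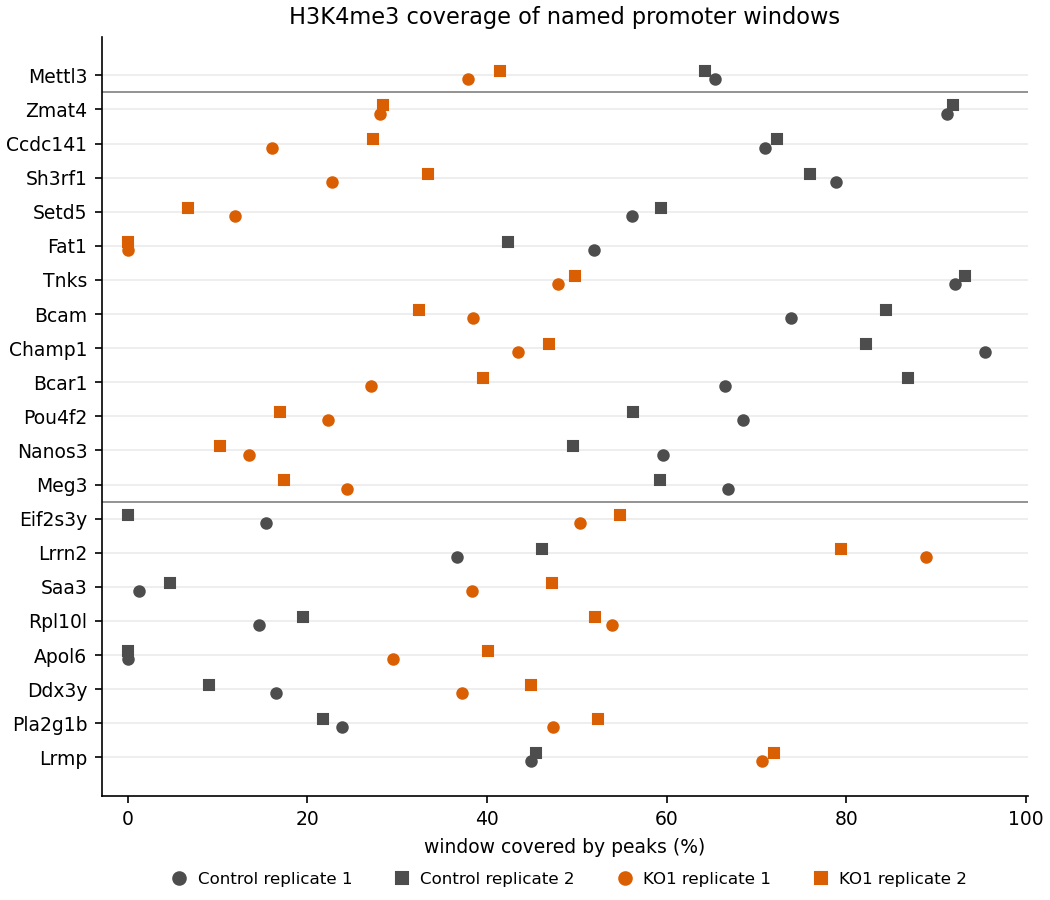
Share of the promoter window, 2 kb to either side of its centre, under H3K4me3 peaks (percent, horizontal axis) for Mettl3 and the 12 largest falls and 8 largest rises, with 1 point per library. The 2 KO1 points lie outside the range of the 2 Control points in every row; Fat1 is at 0 in both KO1 libraries and Apol6 in both Control libraries.

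All 4 tested windows on the Y chromosome were higher in KO1, and that of Kdm5d entered the test through KO1 alone. A further window there, of Gm52481, fell under the filter on mean coverage and was not tested. Eif2s3y, a Y-linked translation initiation factor, had 15.4% and 0% in Control and 50.3% and 54.8% in KO1. Ddx3y, a Y-linked RNA helicase, had 16.5% and 9.02% in Control and 37.2% and 44.9% in KO1. Kdm5d, the Y-linked H3K4 demethylase, had no peak in Control or KO2 and 23.5% and 25.6% in KO1, and Uty, a Y-linked relative of the H3K27 demethylase Kdm6a, had 24.1% and 19.2% against 39.2% and 46.5%. Each of these genes has a close X-linked copy, so reads of the copies may not have been told apart, and Uty is named after its values were seen.

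Pou5f1, Sox2, Nanog, Gapdh and Actb, named whatever their values, did not pass the test or could not be tested. Pou5f1, the Oct4 gene, had 98.4% and 100% in Control and 97.9% and 96.9% in KO1, and Sox2 96.2% and 99.7% against 96.8% and 100%. Nanog was at 100% in all 6 libraries and so could not be tested. Of 31 tested genes of naive pluripotency 1 was lower, Esrrb, an orphan nuclear receptor that maintains self-renewal, and none was higher, against 1.57% lower and 0.192% higher over all windows. The Esrrb window, centred 60.5 kb inside the gene, was covered to 22.4% and 21.7% in Control and 0% and 6.45% in KO1, and in the window of the gene with the most H3K4me3 the call was lost. None of 20 formative or primed genes passed.

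The counts in the other gene lists are to be read against 1.57% lower and 0.192% higher over all windows. None of 18 tested H3K4 methyltransferases and partners and none of 21 polycomb and H3K27 demethylase genes passed, with median differences of -1.89 and -1.26 points. Of 8 H3K4 demethylases 1 passed, Kdm5d, whose window entered the test through KO1 alone. Of 18 neuroectoderm genes 1 was lower, the neuronal tubulin Tubb3 on chromosome 8 (42.0% and 42.1% in Control, 17.7% and 21.6% in KO1). Of 19 genes of the interferon and double-stranded RNA response 1 was higher, Oas1g, a 2-5A synthetase of a gene cluster with near copies (17.0% and 21.1% in Control, 39.5% and 38.6% in KO1). Of 22 targets of LIF, MEK and Wnt signalling 1 was lower, the MAP kinase phosphatase gene Dusp4, also on chromosome 8 (77.4% and 68.1% against 45.8% and 43.6%). Of 25 imprinted genes 1 was lower, Meg3. None passed among 26 Hox genes, 21 mesoderm and endoderm genes, 13 primitive endoderm genes, 11 trophectoderm genes, 2 germline genes, 22 genes of H3K9 methylation and repeat silencing, 75 ribosomal protein genes, 23 glycolysis genes, 24 genes of p53 and its targets or 7 fibroblast markers. The lowest medians in these lists were -11.6 points for the fibroblast markers, -7.22 for primitive endoderm, -5.17 for imprinted genes and -4.67 for Hox genes, against -2.24 over all windows.

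CpG counts of the called windows are given as a description, with no test. In the 300 bases from 250 before to 50 after the start, the median number of CpG was 19 in 125 lower windows with a start sequence, 10 in 19 higher ones and 22 in all 10701 tested ones. Over all 32851 promoters in the RefSeq table it was 7. Among the lower windows the median was 21 where the start lies within 1 kb of the gene end (92 windows) and 11 where it lies farther inside (33 windows). The letters TATAAA on either strand were found in 5.60% of the lower, 10.5% of the higher, 6.50% of all tested and 13.6% of all promoters.

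H3K27ac was measured at the same windows, which were placed with the H3K4me3 lists, so the values are a description of windows chosen by H3K4me3. Its limma fit called 12 of 9432 windows higher (0.127%) and 0 lower (0%), with 1477 higher and 105 lower at an unadjusted p under 0.05, and the median difference was 3.01 points. At the 168 windows with lower H3K4me3 that were tested for both marks, the median H3K27ac difference was 0.15 points and it was above 0 at 88 (52.4%). At the 16 tested windows with higher H3K4me3 it was 15.4 points and above 0 at 15, with 2 of them called higher, Lrrn2 and, named after its values were seen, Sh3pxd2a. Over all windows tested for both marks it was above 0 at 74.4%.

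The differences were unevenly spread over chromosomes. The covered length in KO1 relative to Control was lowest on chromosome 8 (0.629), with 3.69 and 3.61 Mb in Control and 2.34 and 2.25 Mb in KO1. Chromosomes 4 (0.682), 12 (0.710) and 6 (0.763) followed, chromosome 11 was at 0.889 and the X chromosome at 0.983. The others lay between 0.785 and 0.859, apart from the Y chromosome at 1.31, where at most 30 peaks were listed. H3K27ac was ordered alike at its low end, with a ratio of 0.987 on chromosome 8, 1.06 on chromosome 4, 1.12 on chromosome 12 and 1.15 on chromosome 6, against 1.28 over the genome. In the region test 24.0% of regions on chromosome 8, 20.7% on chromosome 4 and 16.0% on chromosome 12 were lower.

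Chromosomes 4, 8 and 12 held 92 of the 212 lower promoter windows (43.4%) and 15.5% of the tested windows. Chromosome 8 alone held 43 of the lower windows (20.3%) and 5.51% of the tested windows. The median promoter difference on chromosome 8 was -6.84 points. Without chromosome 8, 134 windows were lower and 19 higher, and without chromosomes 4, 8 and 12, a choice made after seeing these values, 52 were lower and 12 higher. In the same way 1159 regions were lower and 356 higher. Inside genes 13.7% of regions were then lower, and 4.09% between genes. The number of copies of each chromosome in the lines was not measured here, and its part in these differences was not tested.

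**Figure D5:**
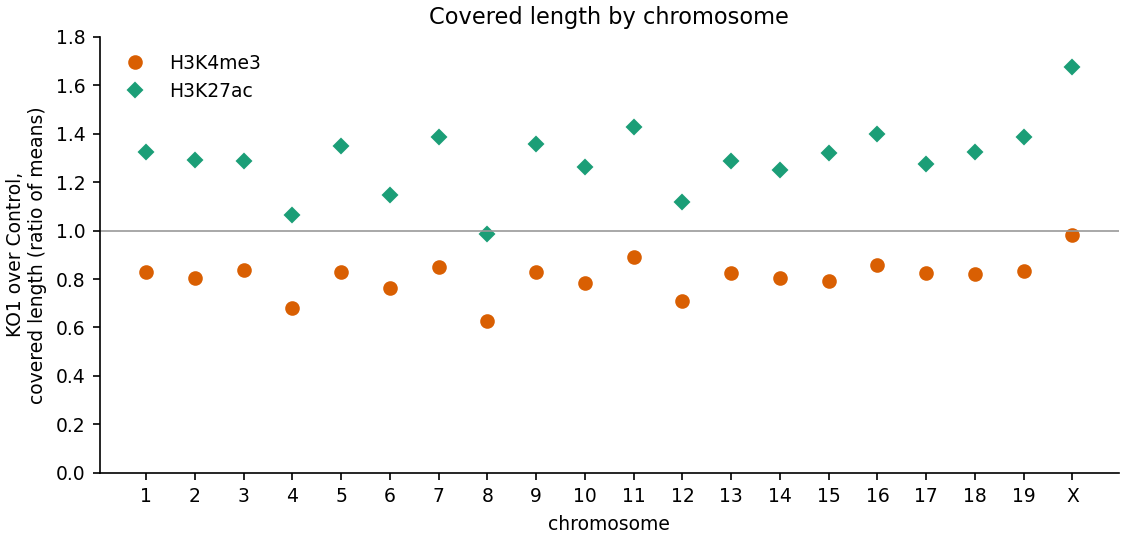
Covered length in KO1 divided by that in Control (ratio of group means) for H3K4me3 and H3K27ac peaks on each autosome and the X chromosome. Chromosomes 4, 6, 8 and 12 are the 4 lowest for both marks (H3K4me3 0.682, 0.763, 0.629 and 0.710), and the X chromosome is the highest (0.983 for H3K4me3).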

How the data were processed

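H3K4me3 chromatin immunoprecipitation of Control and KO1 (2 libraries each) was analysed from the peak lists the authors deposited. Per the submitters' processing notes, reads were processed with CASAVA, Trimmomatic 0.38, Bowtie 1.2.2 and MACS2 on mm10, with roles and parameters not given in the sources used here. Each list holds peak coordinates, and deposited values per peak: a fold enrichment, a -log10 p and a -log10 q (the lowest -log10 q was 2.00). Read depth and any use of the spike-in are not given in the sources used here, so no interval from counts is possible and a peak's presence may depend on depth. The input samples were not used here.

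From the coordinates were computed numbers, widths and covered bases on 21 chromosomes against RefSeq genes of GRCm38.p6 (21887 protein-coding). Promoter windows reach 2 kb to either side of the start with the most H3K4me3 (17497 genes), or, with no start sequence, the window of the gene with the most H3K4me3 (4398 genes). Of the former, 86.9% lie within 1 kb of the gene's outer 5′ end. Windows and joined regions were fitted with limma 3.58.1 in R 4.3.3 on all 6 H3K4me3 libraries, which share one estimate of spread, for KO1 minus Control, with Benjamini-Hochberg adjustment over the whole table and a threshold of 0.05. The fit was also run on simulated normal values with known changes. These lacked the bounds on coverage and the general shift between groups of the real data, so that run does not check the calls. Single values were compared with exact permutation tests.

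The members and gene lists were chosen with earlier results of these data known. Named are Mettl3, the 12 largest falls and 8 largest rises among called promoters without overlap, the 4 largest in each direction for regions inside and between genes, up to 4 members of each list, and Pou5f1, Sox2, Nanog, Gapdh and Actb. List members that add nothing to the counts are not printed. Alternatives changed the normalization, libraries, filter, peak threshold, list length, window, merging gap and chromosomes.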

Additional observations from a re-analysis of the deposited data

Results flagged for a closer look

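At 5 named promoters and 4 named regions the difference of the knockout lines from Control was not the same in KO1 and KO2, by the limma test of KO2 minus KO1 in the same fit, with Benjamini-Hochberg adjustment over all windows or regions. Each difference is a single test in 2 libraries a line, and the part of cell line or clone in it was not tested. These promoters and regions were named by their KO1 minus Control values in this same fit. That choice by itself favours KO2 lying nearer to Control than KO1, so the tests are a description only.

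Kdm5d differed by -24.5 points (adjusted p = 0.0123, limma), since only KO1 had a peak at its window. The window passed the filter on mean coverage through KO1 alone. At 4 promoters KO2 was above KO1. Tubb3 differed by 38.5 points, with 58.1% in both KO2 libraries, above the 42.0% and 42.1% of Control, while both KO1 libraries lay below Control. Bcam differed by 33.6 points, with 67.6% and 70.5% in KO2. Esrrb differed by 24.0 points, with 26.7% and 27.8% in KO2. Oas1a, a member of the interferon response list, differed by 22.0 points. Control had no peak there, the KO1 libraries reached 14.9% and 6.67%, and those of KO2 32.6% and 32.9%. The Oas1a window thus passed the filter on mean coverage through the knockout lines alone, mostly through KO2.

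On the log2 scale of covered length, the region in Basp1 differed by 1.41, with 2419 and 2538 bp in KO2. The region nearest to Tcim differed by 1.82, with 2307 and 1606 bp in KO2. The regions in Ptprj and Zfp951 differed by -1.57 and -1.69. In KO2 they held 1661 and 1010 bp, and 1784 and 1604 bp. Both were closer to Control than KO1 was.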

How the results depend on the processing

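Covered length inside genes and at gene ends, and the number of peaks, stayed lower in KO1 under every alternative that gave a value. With equal numbers of peaks per list the number of peaks gives no comparison. Between genes the log2 ratio of covered length was 0.02, and turned to -0.0024 with gene ends taken within 1 kb. It was 0.13 with equal numbers of peaks, 0.068 without chromosomes 4, 8 and 12 and 0.067 with all annotated genes, and KO1 then lay above Control without overlap (exact permutation p = 0.333 each, the smallest possible). It ranged from -0.019 to 0.052 as single libraries were left out. With equal numbers of peaks the log2 ratio turned for the median peak width (from 0.022 to -0.22) and for the genes with a peak near an end (from -0.014 to 0.0089). Regions in both Control and neither KO1 library, 2131, numbered 1392 among peaks with a -log10 q of at least 5 and 1142 with equal numbers of peaks.

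Calls moved more. Of 212 lower and 26 higher promoter windows, quantile normalization gave 105 and 42, no filter 140 and 17, and the stricter q 97 and 11. Equal numbers of peaks gave 98 lower, no chromosome 8 gave 134, and no chromosomes 4, 8 and 12 gave 52 and 12. Windows at gene ends gave 55 higher, and the window with the most H3K4me3 for every gene, chosen after seeing the data, 47. Leaving out 1 library gave 0 to 4 lower and 0 to 1 higher. A group then has a single library, assumed to vary like the others. Of 1867 lower and 424 higher regions, quantile normalization left 972 and 937, no filter 1056 lower, the stricter q 1185, no chromosomes 4, 8 and 12 1159, and peaks joined only where they touch 670 and 145. Leaving out 1 library gave 209 to 701 lower and 98 to 165 higher. In windows at gene ends Setd5 turned to 1.61 and Lrmp to -5.74 points. The cause of these changes was not tested. All 16 named regions stayed called under every alternative that kept their chromosome, all 4 libraries and the joining of peaks. Of the 28 called promoters named, 26 stayed called under quantile normalization, 21 with equal numbers of peaks, 19 with the stricter q and 2, 1, 0 and 0 of those tested as Control r1, Control r2, KO1 r1 and KO1 r2 were left out.

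Differences between replicates 1 and 2 correlated at 0.0027 to 0.010 between groups over 13533 windows. Such a correlation cannot show a shift common to all windows, so it does not exclude that the replicate numbers pair the samples. Replicate 1 had more peaks than replicate 2 in Control (83644 and 81608), KO1 (69995 and 69320) and KO2 (72303 and 66483). Its covered length was also larger in each group. With the replicate number as a block, 138 promoter windows were lower and 17 higher, and 2002 and 455 regions. Depth is unknown, so weak peaks may be missed in any list.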
